A study of Mus musculus with 24 samples.

Results

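The array used for these mouse livers and fat pads carries 16251 probes (60-base oligonucleotides) that the manufacturer placed in long intergenic noncoding RNA regions, and 8192 of them (50.4%) are described here. They were selected on the scanner's own flags: a noncoding probe was kept when at least 1 of the 8 groups of mice had a signal well above background on each of its 3 arrays. Of the 39430 other probes of the array, 68.8% passed the same rule. In all, 55681 probes were measured and 35318 passed the rule. The first count of members past the test in a comparison is set beside the share over all probes tested.

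The mice carried human PER1 in 1 of 2 forms: with the S714G variant (called mutant here) or with S714 (called control). All were males of 2 months on a C57BL/6 background and had spent 10 days in light-dark cycles. Liver and white adipose tissue were taken at ZT1 and at ZT13, counted in hours from lights on, which gave 8 groups of 3 arrays: liver control ZT1, liver mutant ZT1, liver control ZT13, liver mutant ZT13 and the same 4 in adipose tissue. Every group therefore carries a human PER1 transgene, controls included. The promoter of that construct, the number of founder lines and the state of the mouse Per1 gene are not given in the sources used here. The labels speak of independent repeats without saying that each array is 1 animal, so p-values measure the spread between these samples, part of which may be technical.

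Long intergenic noncoding RNAs are transcripts from outside protein-coding genes that are often spliced and polyadenylated but are not translated into known proteins. Some have a settled role: Neat1 is the scaffold RNA of nuclear bodies called paraspeckles, Malat1 resides in nuclear speckles, and H19 and Kcnq1ot1 come from imprinted loci. For most of the others no role is known, and they are named here by position. PER1 is a repressor of the circadian clock, in which BMAL1 and CLOCK drive the Per and Cry genes whose products in turn block BMAL1 and CLOCK. Many liver transcripts, coding and noncoding, follow that cycle.

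Positions come from the array's design file, which uses mouse build mm9, and strand is that of the sequence the probe represents. Whether a probe lies in an exon, an intron or an untranslated region is not given, because no annotation of that build was used. The probe sequences that carry the results below are shown first, 5′ to 3′. The first set is the 5 probes of the region the design calls NEAT1 (chr19:5842534-5842845, reverse strand), shown because each of them was higher in mutant than in control liver at ZT13. Capitals mark AATAAA or ATTAAA, a hexamer of the kind that precedes polyadenylation sites.
A_30_P01021631: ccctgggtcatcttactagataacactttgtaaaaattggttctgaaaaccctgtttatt
A_30_P01020135: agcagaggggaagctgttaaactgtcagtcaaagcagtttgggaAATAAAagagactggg
A_30_P01029720: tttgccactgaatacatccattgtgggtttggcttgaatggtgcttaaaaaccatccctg
A_30_P01025798: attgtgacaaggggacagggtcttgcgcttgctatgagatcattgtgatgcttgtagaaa
A_30_P01023251: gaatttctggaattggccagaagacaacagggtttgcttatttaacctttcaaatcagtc

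The second set is the 5 probes of region chr1:44915250-44944125 on the forward strand, which all lie between positions 44929567 and 44930886. They are shown because the sign of the genotype difference in liver turned between ZT1 and ZT13 for every one of them. Capitals again mark the hexamer.
A_30_P01021125: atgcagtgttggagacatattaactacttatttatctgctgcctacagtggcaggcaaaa
A_30_P01023145: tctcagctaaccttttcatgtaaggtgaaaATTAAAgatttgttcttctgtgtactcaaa
A_30_P01030770: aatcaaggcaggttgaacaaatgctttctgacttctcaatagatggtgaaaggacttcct
A_30_P01027052: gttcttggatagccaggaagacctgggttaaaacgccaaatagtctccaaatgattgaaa
A_30_P01021793: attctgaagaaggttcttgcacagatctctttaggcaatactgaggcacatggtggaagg

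The third set is the probes on which the adipose results turn: 3 probes laid end to end in region chr10:76114741-76115073 on the forward strand, and 1 probe of region chr11:3538125-3554450 on the forward strand (chr11:3548219-3548278). Capitals mark the hexamer.
A_30_P01030556: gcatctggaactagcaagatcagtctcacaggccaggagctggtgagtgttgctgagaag
A_30_P01020872: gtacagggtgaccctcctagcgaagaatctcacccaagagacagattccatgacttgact
A_30_P01028145: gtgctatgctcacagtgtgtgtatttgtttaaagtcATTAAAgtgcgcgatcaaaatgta
A_30_P01021787: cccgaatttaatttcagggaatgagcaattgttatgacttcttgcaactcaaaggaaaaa

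The last set is pairs of probes that face each other on opposite strands, shown because the strand of several changed regions could not be settled by their signals. Capitals mark the bases the members of a pair share as reverse complements: 34 and 53 bases for the pairs of region chr17:26911397-26917047, all 60 for the pair at chr9:106177470-106177529, 47 for the pair of region chr16:23992037-24001037 and 46 for the pair of region chr8:126268510-126290810. In each pair the forward-strand probe comes first.
A_30_P01025742: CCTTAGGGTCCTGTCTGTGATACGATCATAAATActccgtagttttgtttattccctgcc
A_30_P01018107: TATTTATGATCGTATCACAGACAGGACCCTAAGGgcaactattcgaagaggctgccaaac
A_30_P01026815: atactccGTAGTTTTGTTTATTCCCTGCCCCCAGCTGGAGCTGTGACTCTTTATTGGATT
A_30_P01019486: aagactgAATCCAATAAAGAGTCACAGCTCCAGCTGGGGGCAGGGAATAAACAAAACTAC
A_30_P01020533: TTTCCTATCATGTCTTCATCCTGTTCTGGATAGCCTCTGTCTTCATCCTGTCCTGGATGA
A_30_P01020033: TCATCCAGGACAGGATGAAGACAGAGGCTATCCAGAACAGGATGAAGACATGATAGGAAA
A_30_P01033600: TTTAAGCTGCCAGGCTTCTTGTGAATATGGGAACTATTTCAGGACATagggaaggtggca
A_30_P01021218: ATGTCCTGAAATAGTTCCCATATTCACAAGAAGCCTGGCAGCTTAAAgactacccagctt
A_30_P01027730: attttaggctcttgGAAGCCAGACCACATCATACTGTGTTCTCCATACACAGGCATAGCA
A_30_P01017737: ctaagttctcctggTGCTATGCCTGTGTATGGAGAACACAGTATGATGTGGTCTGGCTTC

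All levels are log2 processed signal minus the 75th percentile of the same array, and all differences are on that log2 scale. A difference passed the test where limma's adjusted p (Benjamini-Hochberg over all probes tested) was under 0.05. The arrays lay on 3 slides that largely followed the groups: all control ZT1 arrays of both tissues were on slide 1, all mutant ZT1 liver arrays on slide 2 and all mutant ZT13 arrays on slide 3. The lowest signal that the scanner called well above background differed with them, from -4.04 to -2.83 on the log2 level in liver control ZT1 arrays and from -5.06 to -4.82 in liver mutant ZT13 arrays. The median level of the members per array was -2.62 to -2.04 on slide 1, -3.14 to -2.62 on slide 2 and -2.95 to -2.72 on slide 3, whereas that of all other detected probes stayed between -0.50 and -0.37. Arrays of 1 group correlated at 0.898 to 0.994, with the lowest value in adipose mutant ZT1. Mean levels of hepatocyte markers in the adipose arrays ran from 3.61 to 5.89 in control ZT1, -1.83 to 3.39 in mutant ZT1, 1.61 to 3.68 in control ZT13 and 1.08 to 2.55 in mutant ZT13, against 7.0 to 7.88 in liver. Of these 12 markers, 11 were on the array, and 9 to 11 of them were above background on all arrays of each adipose group. Adipocyte markers marked the adipose arrays (mean 4.96 to 5.39, all 12 above background) and lay between -1.84 and -1.33 in liver. Samples are whole tissue, so fewer cells of a type and less RNA per cell cannot be told apart.

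The label of the probes was first checked on the 12 noncoding transcripts that the design gives by name. Every probe of NEAT1 (5 of 5), NEAT2, the design's name for Malat1 (3 of 3), TUG1 (5 of 5) and KCNQ1ot1 (5 of 5) was a member. H19, which is abundant before birth, had 3 of 5, lincP21 had 2 of 5, and NRON and PINC had 1 of 5 each. None of the 5 probes each for XIST, TSIX and HOTAIR was a member, nor any of the 4 for BRN1-A. The XIST probes, for the RNA that coats the inactive X chromosome in females, were above background on at most 2 of the 24 arrays, all from males. Most members have no such name, and gene probes of the same array lay within many of their regions, so "intergenic" is the design's word: 425 of the 3445 regions with a member held a probe of a named gene on the same strand, 275 held one on the opposite strand only, and 2745 held none.

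Detection of the members varied from group to group. On all 3 arrays of a group, 4314 of the noncoding probes (26.5%) were above background in liver control ZT1, 4635 (28.5%) in liver mutant ZT1, 4961 (30.5%) in liver control ZT13 and 6440 (39.6%) in liver mutant ZT13. In adipose tissue the numbers were 5248 (32.3%), 4967 (30.6%), 6325 (38.9%) and 7539 (46.4%) in the same order. Taking each group's array with the highest detection limit, that limit was -4.82 in liver mutant ZT13, -4.98 in adipose control ZT13 and -5.19 in adipose mutant ZT13, the groups with the most detected probes, and -3.98 to -2.83 in the other 5 groups. The part of those limits in the numbers was not tested. Of the members, 6583 passed in liver, 7745 in adipose tissue and 6136 in both. All 8 groups detected 3413 members, whereas 1111 passed in a single group. Seen in liver and on none of the 12 adipose arrays were 63, against 605 in adipose tissue and on none of the 12 liver arrays. Most hepatocyte markers were above background in each adipose group, as given above. The part of this, and of the detection limits, in the 2 numbers was not tested. The 1111 members just inside the rule had a median level of -4.33 (quartiles -4.67 and -3.94) in that group. The 1437 probes just outside it, with 2 of 3 arrays at best, had -4.52 (quartiles -4.88 and -3.97), so the levels on both sides of the rule overlapped.

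Members lay in 3445 of the 4622 regions of the design, and in 1343 regions every probe was one. Signals within a region were uneven: in the 1270 regions with at least 3 members, the brightest and the dimmest differed by a median of 2.69 log2 units, and in 344 regions by more than 4. Part of any such difference belongs to the probe, since oligonucleotides bind their targets unequally. For 1067 regions the design has probes on both strands, and in 800 of them both strands gave members, in 200 a single strand and in 67 neither. In those 800, the median member levels of the strands differed by a median of 1.07 log2 units and by more than 2 in 212 regions. Of the 2473 regions designed on a single strand, 1635 held a member. Regions with members had a median length of 11851 bases, against 10674 for all. For those without a gene probe inside, the nearest one lay at a median distance of 20213 bases (quartiles 6367 and 54426).

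Base composition of the probes went with detection. The median GC content was 45% in members (quartiles 41.7 and 51.7), 43.3% in noncoding probes that were not members and 41.7% in the other probes of the array. The share of members was 37.3% (977 of 2617) among noncoding probes of 35% GC or less and 92.6% (702 of 758) among those over 55%, with every class between them in order. The 702 were also brighter, with median levels of -0.65 in liver and -0.89 in adipose tissue, against -3.17 to -2.41 in the other classes. GC content changes how strongly a probe binds, and its part in detection was not tested. The hexamers AATAAA and ATTAAA occurred on the probe's own strand in 5.79% of members (474 probes), 6.76% of noncoding non-members and 16.7% of the other probes of the array. On the opposite strand they occurred in 4.48%, 5.78% and 6.56%. The noncoding probes thus held the hexamer less often than the other probes, and the own-strand excess seen in those (16.7% against 6.56%) was small in members (5.79% against 4.48%). Across chromosomes, members made up 39.4% of the noncoding probes on chromosome 9, 39.5% on chromosome 10 and 60.9% on chromosome 17, which were the extremes, and 43.1% on the X chromosome.

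The brightest members were read on every array. In liver, A_30_P01031448 (chr14:78936616-78936675) had a mean level of 7.85 (7.15 in adipose tissue), and its nearest gene probe belongs to Akap11, which encodes an anchor of protein kinase A, 10842 bases away. It was followed by A_30_P01027122 near Rcor3 (7.71), A_30_P01024756 near Akap13 (7.53) and A_30_P01018807 near Serbp1 (7.42). In adipose tissue, A_30_P01026759 near Otx2os1 (6.42) and A_30_P01019020 near Trib3 (6.31) were among the brightest, together with A_30_P01031448 and A_30_P01024756. This order is one of spots, since a probe's signal depends on its sequence as well as on the amount of RNA.

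More members differed between the tissues than between genotypes or times. Of 8189 members tested, 5408 (66.0%) differed between liver and adipose tissue, 2804 higher and 2604 lower in liver, in 2695 regions. Over all 35310 probes tested the share was 74.1, with 39.9 higher and 34.3 lower in liver (percent). Among the 3413 detected in all groups, 2338 differed, 1634 higher and 704 lower in liver, and over all probes detected in all groups the share was 75.4 percent. The share of higher calls was 51.8% here and 70% after another background correction (normexp), so the balance of directions is not settled. Within slide 1, in control ZT1, 2145 members differed, and within slide 3, in mutant ZT13, 5510.

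The largest tissue difference was that of A_30_P01028806 (chr2:136340890-136340949), which lies in a region that holds a same-strand probe for Ankef1. Its level was -6.66 to -4.61 on the 12 liver arrays, none of them above background, and 4.39 to 5.42 on the 12 adipose arrays. The groups were far apart, and adipose signal was at least 598-fold higher (difference -10.63, SE 0.20, adjusted p = 3.25e-19). Such a bound sets the bright group's mean against the lowest signal called above background on the dim arrays. A_30_P01020751 and A_30_P01025413 of the same region were at least 104-fold and at least 42.3-fold higher in adipose tissue, and A_30_P01021904 differed by -6.98 (liver minus adipose). In the other direction, A_30_P01022288 was higher in liver by 8.05, A_30_P01023273 by 8.04, A_30_P01018133 by 7.81 and A_30_P01028418 by 7.79. A_30_P01023273 lies 16755 bases from a probe for Gsta1, a glutathione transferase of the liver that was itself higher in liver by 7.43. All 8 kept their direction and their call under each of the 32 alternatives run. TUG1 was among the named transcripts with a tissue difference: its 5 probes, above background on all 24 arrays, were all lower in liver (differences from -1.11 to -0.86).

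**Figure D1:**
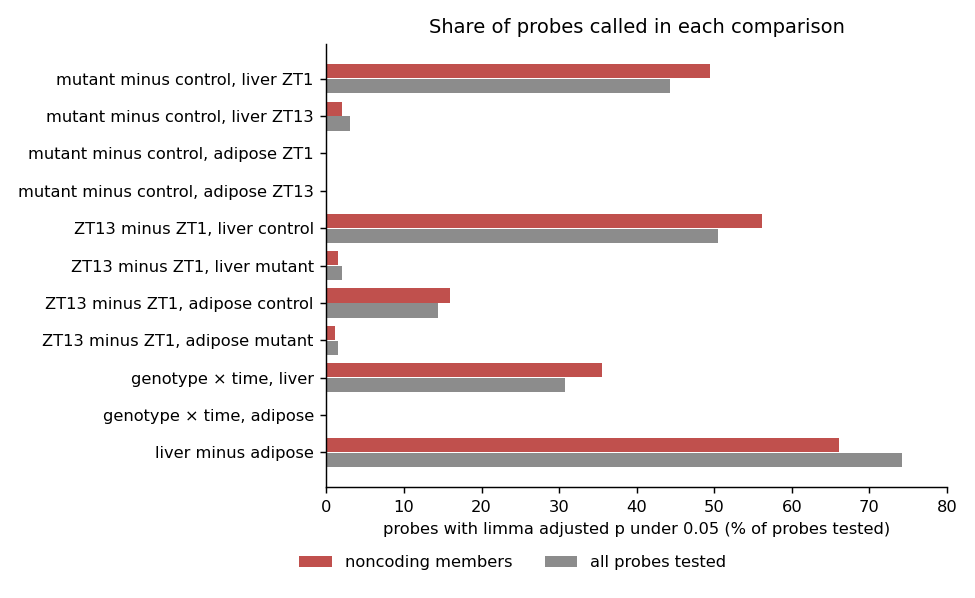
Horizontal bars give the percentage of tested probes with an adjusted p under 0.05 in each of the 11 comparisons, in red for the noncoding members and in grey for all probes tested. In the genotype comparisons, members reach 49.5% in liver at ZT1, 2.04% in liver at ZT13 and 0% to 0.0258% in adipose tissue, and the grey bars follow the same order.

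The comparison of mutant with control liver at ZT13 asks which noncoding transcripts differ in the early night, and 1 slide holds both of its groups. NEAT1 was higher in mutants by about 1.71, as were probes of a region on chromosome 8, and regions on chromosomes 1 and 17 were lower, the latter on both strands. Of 6582 members tested, 134 (2.04%) passed, 64 higher and 70 lower, in 89 regions. Over all 30816 probes 3.0 percent passed, with 1.49 higher and 1.51 lower, so the members' share was near that of the array. The median difference was 0.04 in members and 0.02 over all probes. Among the 4902 members measured on both sides, which means above background on every array of the groups compared, 103 passed, 37 higher and 66 lower, against 2.96 percent of all probes so measured. The share of higher calls was 47.8%, and 35.6% after normexp. The count moved with single arrays. Dropping replicate 2 or replicate 3 of control ZT13 gave 49 and 39 members. Dropping each mutant ZT13 array (replicates 1, 2 and 3) gave 41, 34 and 36. Within slide 3, which holds 2 control and 3 mutant arrays, 257 members passed, 97 of them among the 134. The remaining control array, replicate 1, lies on slide 2 and is the only link between slides 2 and 3 within a group. A fit with slide as a block, and one without that array, therefore estimate this difference from the same slide 3 arrays. These alternatives are not separate checks of the difference, although their error estimates differ.

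NEAT1 gave the same reading from all 5 of its probes, whose sequences are shown above. A_30_P01020135 read 0.48, 0.34 and 0.07 in control liver at ZT13 and 1.93, 2.26 and 1.77 in mutant liver, and the groups did not overlap (difference 1.69, SE 0.24, adjusted p = 0.00358). A_30_P01021631 read -2.05, -1.98 and -1.83 in controls and -0.27, 0.06 and -0.54 in mutants (1.71, SE 0.30, adjusted p = 0.0128). The other 3 probes rose by 1.75 (SE 0.29, adjusted p = 0.00844, A_30_P01023251), 1.67 (SE 0.26, adjusted p = 0.00701, A_30_P01025798) and 1.73 (SE 0.27, adjusted p = 0.00683, A_30_P01029720). The 5 differences span 1.67 to 1.75, although the probes themselves differ in brightness. They do not count as independent measurements, since they read 1 transcript region on the same arrays. The separate Neat1 probe among the gene probes of the array was higher by 2.05 (adjusted p = 0.0109). NEAT1 was singled out after its values were seen, because more than 2 of its probes passed in the same direction.

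At ZT1 the NEAT1 probes went the other way in the medians: mutant minus control was -0.74 (median, range -1.25 to -0.47), and 2 of the 5 passed. That count was 5 without control ZT1 replicate 3 (median -1.14) and 1 without control replicates 1 or 2 or mutant replicates 2 or 3. A_30_P01020135 read 2.49, 3.16 and 2.16 in control liver at ZT1 and 2.12, 2.14 and 2.15 in mutant liver, so its groups nearly touched there. From ZT1 to ZT13 all 5 probes fell in control liver, by a median of 2.64, with changes between -3.15 and -2.30 (adjusted p from 1.37e-05 to 8.27e-05). In mutant liver the change was -0.18 (median, range -0.24 to -0.05) and no probe passed. The difference between these changes, tested as the genotype-by-time interaction, was 2.49 (range 2.16 to 2.91) and passed for all 5 probes.

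The NEAT1 difference at ZT13 was as large within slide 3 (median 1.74, range 1.66 to 1.84, 5 of 5 passed). Under the slide block, which takes this difference from the same slide 3 arrays, 4 of 5 passed at the same median. Leaving out any array of the comparison kept at least 4 of 5 calls, with medians from 1.55 to 1.85. With slide as a block none of the 5 probes passed at ZT1, for time in controls or for the interaction, at medians of -0.88, -2.75 and 2.61. In liver the control ZT1 arrays have a slide to themselves. In adipose tissue the probes were brighter, and liver minus adipose was -2.51 (range -2.66 to -2.15), with all 5 passing. A_30_P01020135 read 3.83, 3.94 and 3.29 in adipose control ZT13 and 4.11, 4.15 and 4.44 in adipose mutant ZT13. The adipose genotype difference at ZT13 was 0.69 (range 0.55 to 0.79) and no probe passed.

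**Figure D2:**
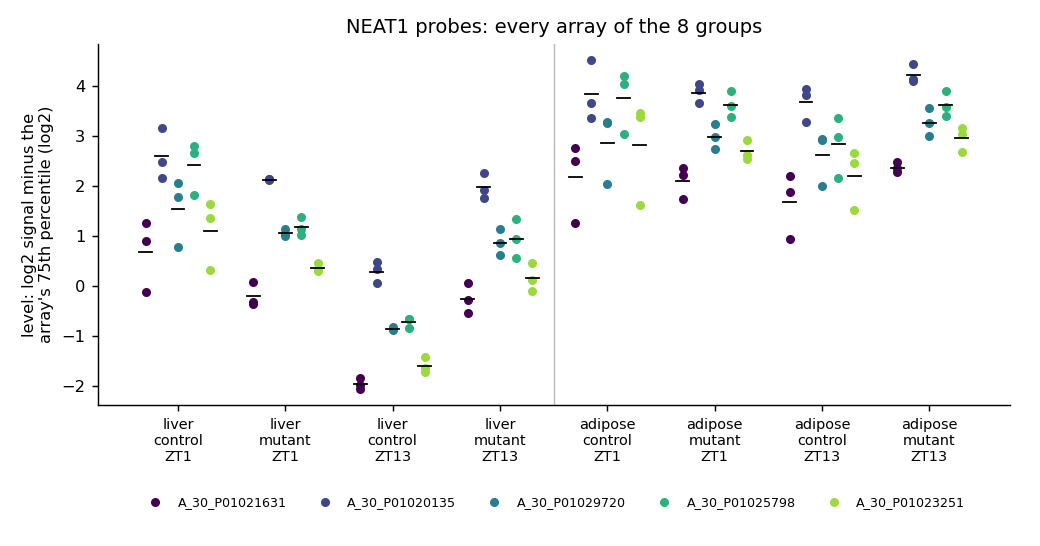
Points give the level (log2 signal minus the array's 75th percentile) of the 5 NEAT1 probes on each of the 24 arrays, by group, and black ticks the group means. Liver control ZT13 is the lowest group for all 5 probes, and the adipose groups lie above the liver groups.

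NEAT2, the design's Malat1 probes, did not share this pattern at ZT13: 2 of its 3 probes were tested in liver and neither passed (0.40 and 0.05), and the gene probe for Malat1 differed by 0.13 (SE 0.44, adjusted p = 0.95). The gene probe was lower in mutants at ZT1 (-2.12, SE 0.44, adjusted p = 0.0034). KCNQ1ot1, the antisense RNA of an imprinted cluster, had 4 of 5 probes tested in liver, all of them lower in mutants at ZT1 (differences from -1.07 to -0.50) and none past the test at ZT13. Both lincP21 members were lower at ZT1 (-1.22 and -1.07). TUG1 had 2 of 5 probes past the test at ZT1, in opposite directions (A_30_P01022467 at 1.26 and A_30_P01017489 at -0.55), and none at ZT13. The limit that the slides set on ZT1 values holds for each of these.

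The forward-strand region chr1:44915250-44944125 turned its sign between the times. At ZT13, A_30_P01030770 read 1.05, 1.63 and 1.64 in control liver and -0.48, -0.53 and -0.79 in mutant liver (difference -2.04, SE 0.20, adjusted p = 0.000457). A_30_P01021793 read 1.22, 2.02 and 1.64 in controls and -0.81, -0.68 and -0.95 in mutants (-2.44, SE 0.28, adjusted p = 0.00143). Neither pair of groups overlapped, and all 5 probes of the region were lower in mutants, by a median of 2.04 (differences from -2.44 to -1.87). At ZT1 the same probes were all higher in mutants, by a median of 2.62 (range 1.51 to 3.66). A_30_P01030770 read -2.49, -2.30 and -2.35 in control liver and 0.33, 0.46 and -0.06 in mutant liver. A_30_P01023145 was above background on no control ZT1 array (-5.92, -5.52 and -5.15) and on every mutant array (-1.83, -1.54 and -2.23), so it was at least 3.39-fold higher.

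In control liver the region rose from ZT1 to ZT13 by a median of 3.71 (range 2.66 to 5.08, 5 of 5 passed). In mutant liver it changed by -0.84 (range -1.20 to -0.65) with no probe past the test, and the interaction was -4.66 (range -5.73 to -3.38), past the test for all 5. The ZT13 difference was -2.24 within slide 3 (5 of 5 passed). With slide as a block, which takes this difference from the same arrays, 4 of 5 passed. With the same block none of the 5 passed at ZT1 (median 1.64) or for time in controls (2.45), and 2 of 5 passed for the interaction (-3.89). These were A_30_P01030770 and A_30_P01027052, whose interaction passed under all 20 alternatives run. Without any one of control ZT13 replicates 2 and 3 or mutant ZT13 replicates 1, 2 and 3, 3 of 5 still passed at ZT13, with medians of -1.90, -1.94, -2.11, -1.92 and -1.95. A_30_P01021793 and A_30_P01030770 kept their ZT13 call under all 15 alternatives, not all of which are separate checks.

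Over time in adipose controls, 3 of 5 probes rose by ZT13 (median 1.58, range 1.31 to 2.71). That count fell to 1 without control ZT1 replicate 2 and to 0 without control ZT1 replicate 3 or any single control ZT13 array, and with slide as a block it was 0 of 5 (median 0.70). A_30_P01030770 read -1.47, -1.73 and -2.49 in adipose control ZT1 and -0.47, -0.34 and 0.35 at ZT13. The adipose genotype differences were 0.56 at ZT1 and -0.59 at ZT13 in the median, and no probe passed. Gulp1, whose gene probe is the nearest at 61685 bases on the same strand, differed by -0.07 in liver at ZT13.

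**Figure D3:**
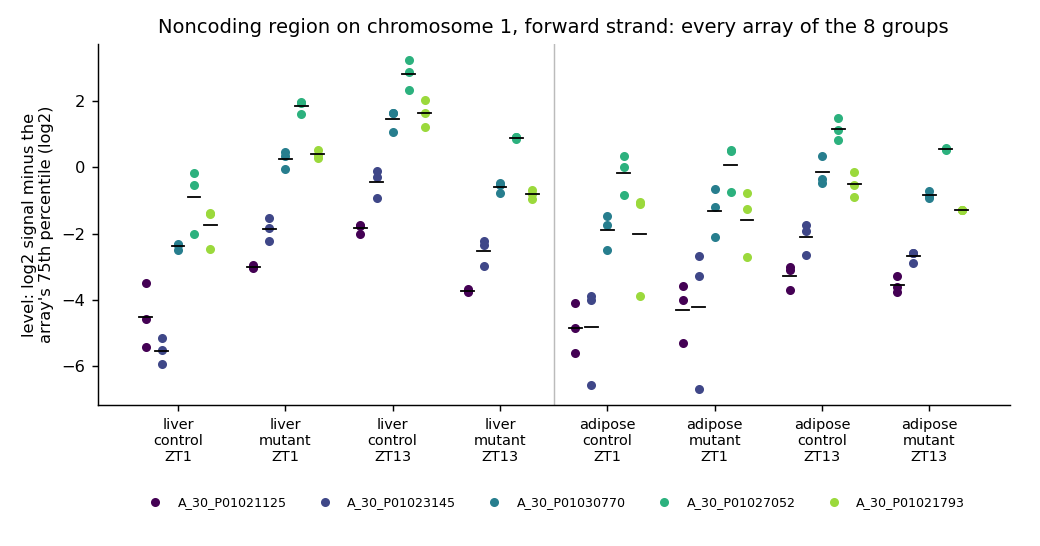
Points give the level of the 5 probes of region chr1:44915250-44944125 on each array, by group, and black ticks the group means. In liver the control arrays lie lowest at ZT1 and highest at ZT13, with both mutant groups between them, and in adipose tissue the spread between groups is smaller.

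Region chr17:26911397-26917047 was lower in mutant liver at ZT13 on both strands. Its nearest gene probe, 2110 bases away on the forward strand, belongs to Crebrf, a regulator of the CREB3 transcription factors. On the forward strand 7 of 10 members passed (median -1.15, range -1.45 to -0.99), and on the reverse strand 3 of 9 (median -1.19, range -2.24 to -0.32). A_30_P01025742 read 1.49, 2.24 and 1.39 in control liver and 0.66, 0.30 and 0.75 in mutant liver at ZT13 (-1.14, SE 0.23, adjusted p = 0.025). Its reverse-strand partner A_30_P01018107, which shares 34 bases with it, read 1.34, 1.93 and 1.35 in controls and 0.56, 0.10 and 0.37 in mutants (-1.19, SE 0.21, adjusted p = 0.0109). The groups did not overlap in either, and the partners gave like values on nearly every array. In adipose tissue A_30_P01025742 read 2.08, 2.48 and 2.49 in control and 1.67, 1.32 and 1.58 in mutant ZT13. The groups stood apart there too, but the forward-strand median of -0.84 came with no call.

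The chromosome 17 region also separated the times in mutant liver. A_30_P01026815 read 2.98, 2.68 and 3.11 in mutant liver at ZT1 and 0.67, 1.27 and 1.65 at ZT13 (-1.73, SE 0.26, adjusted p = 0.00908). On the forward strand 9 of 10 members fell, by a median of 1.44, with changes between -1.73 and -1.17. The interaction was -2.36 on the forward strand (9 of 10) and -1.68 on the reverse strand (7 of 9). These calls rest on few arrays. At ZT13 the forward-strand count of 7 fell to 0 without control ZT13 replicate 2 and to 1 without any single mutant ZT13 array, at medians of -0.92, -1.21, -1.02 and -1.19, and the reverse-strand count of 3 fell to 0 and 1 without mutant ZT13 replicates 2 and 3. For time in mutants the count of 9 became 2, 4 and 1 on dropping mutant ZT1 replicates 1, 2 and 3 in turn, and 5, 1 and 2 on dropping those of mutant ZT13. Within slide 3 the ZT13 medians were -1.23 (2 of 10 passed) and -1.30 (5 of 9). The slide block takes the ZT13 difference from the same arrays. With slide as a block over all 24 arrays, 7 of 10 forward and 4 of 10 reverse members passed at ZT13, but for time in mutants 0 of 10 (median -1.68) and 1 of 10 (-1.79) did, and for the interaction 1 of 10 (-1.93) and 3 of 10 (-2.18). Mutant liver arrays of ZT1 and ZT13 lie on different slides.

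**Figure D4:**
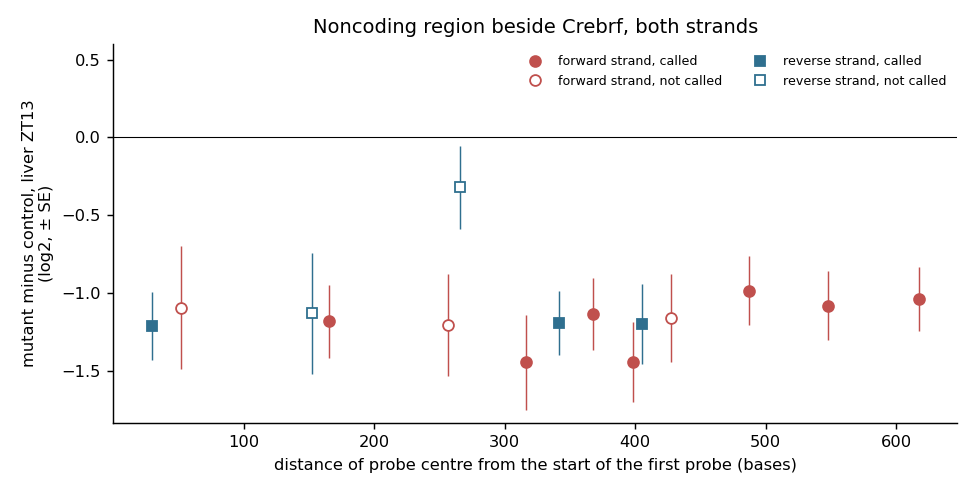
Each point is a probe of region chr17:26911397-26917047, placed by the distance in bases of its centre from the start of the first probe, with the difference between mutant and control liver at ZT13 (log2, bars 1 SE) on the vertical axis. Of the 10 forward-strand probes 7 are filled as past the test, and of the 5 reverse-strand probes with a mapped position 3 are; all 15 lie below 0.

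Region chr8:126268510-126290810 was higher in mutant liver at ZT13. Its reverse strand holds a probe for 4732419C18Rik, and 4 of 7 reverse-strand members passed (median 1.86). A_30_P01023533 read -2.16, -2.93 and -3.52 in controls and -0.93, -0.73 and -1.08 in mutants (1.96, SE 0.37, adjusted p = 0.0168). A_30_P01027730 on the forward strand read -4.60, -5.66 and -5.03 in controls, with 1 array above background, and -2.94, -2.87 and -3.15 in mutants (2.11, SE 0.41, adjusted p = 0.0196). Its partner A_30_P01017737, sharing 46 bases on the reverse strand, differed by 2.30 (SE 0.47, adjusted p = 0.0261). The groups did not overlap in these 3. A_30_P01027730 and A_30_P01017737 each lost their call under 8 of 14 alternatives, though, and A_30_P01023533 under 6 of 15. Within slide 3 the reverse strand had a median of 2.16 with 4 of 7 past the test. The count of 4 fell to 1 without control ZT13 replicate 2 or mutant ZT13 replicate 3, and to 0 without control replicate 3 or mutant replicates 1 or 2, at medians between 1.63 and 1.94. The region was a liver one, with all 7 reverse-strand members higher than in adipose tissue (median 3.66).

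Of the members past the test at this time without overlap of the groups, the largest difference was that of A_30_P01026279 (chr10:39402608-39402667). It lies in the region that holds E130307A14Rik. It read -2.71, -3.50 and -3.32 in control liver at ZT13 and -6.42, -7.37 and -7.15 in mutant liver, where no array was above background, so it was at least 3.31-fold lower (fitted difference -3.80, SE 0.44, adjusted p = 0.00148). The other groups did not detect it either, so it entered the fit only through control ZT13, the group where it is high. Its rank and p-value carry that choice. The call held under all 14 alternatives. A_30_P01019901 was lower by 1.93 (adjusted p = 0.00344) and kept its call under all 14 as well, and A_30_P01031758 was lower by 2.06 (adjusted p = 0.0161). A_30_P01023417 was higher by 2.08 (adjusted p = 0.041), and A_30_P01028557 was at least 1.14-fold higher (2.18, adjusted p = 0.0177). These 3 were less stable: A_30_P01028557 lost its call under 9 of 14 alternatives, and A_30_P01031758 and A_30_P01023417 under 6 of 14 each. Smaller groups of probes moved together as well: in region chr10:39659425-39674200, which holds Mfsd4b3-ps, 4 of 5 members were higher (median 1.02), and in region chr4:86267450-86277650, 3 of 5 (median 0.92). Without single arrays those counts fell to 1 or 2: to 1 without control ZT13 replicates 2 or 3 or mutant replicate 3 in the former, and to 2 without mutant replicates 1 or 2, and to 1 in the latter without control replicates 2 or 3 or mutant replicates 2 or 3. The slide block left 1 of 5 in the former (median 1.10) and 3 of 5 in the latter. From the same arrays, the fit within slide 3 gave counts of 4 and 3.

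The ZT1 comparison of genotypes in liver gave the largest count of all genotype comparisons, and the slides coincide with it. Of 6582 members, 3255 (49.5%) passed in 2125 regions, 806 higher and 2449 lower in mutants, against 44.2 percent of all probes, 18.6 higher and 25.7 lower. The median difference was -0.43 in members and -0.13 over all probes. Among the 3904 members measured on both sides 2077 passed, 465 higher and 1612 lower, against 44.6 percent of all probes so measured. By level, the members' median difference was -0.67 for levels from -4 to -3 and -0.13 above 0, against -0.49 and 0.02 over all probes of those levels. For levels from -5 to -4 it was -0.45 in members and -0.34 over all probes, so the dimmest classes did not shift the most. Under quantile normalization 39.3% of the called members were higher, against 24.8% here, and the median of all probes moved from -0.13 to 0.00. Liver control ZT1 and liver mutant ZT1 lie on separate slides, so slide and genotype cannot be told apart within liver. With slide as a block over all 24 arrays, which takes the offset of slides 1 and 2 from the divided adipose mutant ZT1 group, 22 members passed and the members' median was 0.16.

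The members with the largest ZT1 differences are given with that limit. A_30_P01023984, 1706 bases from a probe for Map3k2, read -3.07, -2.0 and -2.47 in control liver and 1.09, 1.12 and 1.11 in mutant liver (difference 3.62). A_30_P01030038, in a region that holds Hook3, read -4.11, -4.06 and -4.49 in controls, none above background, and -1.26, -1.20 and -1.0 in mutants, at least 5.57-fold higher. A_30_P01020248 near Zfp644 and A_30_P01030169 were higher by 2.90 each. The groups were far apart in these members. Among the lower ones, A_30_P01023950 was at least 4.70-fold lower and A_30_P01033034 at least 3.94-fold lower. The H19 probe A_30_P01025068 read -3.32, -3.02 and 0.22 in control liver and -5.16, -5.74 and -5.66 in mutant liver, at least 4.44-fold lower, with 1 control array standing well above the others. All 12 members that the naming rule gave for this comparison lost their call with slide as a block.

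**Figure D5:**
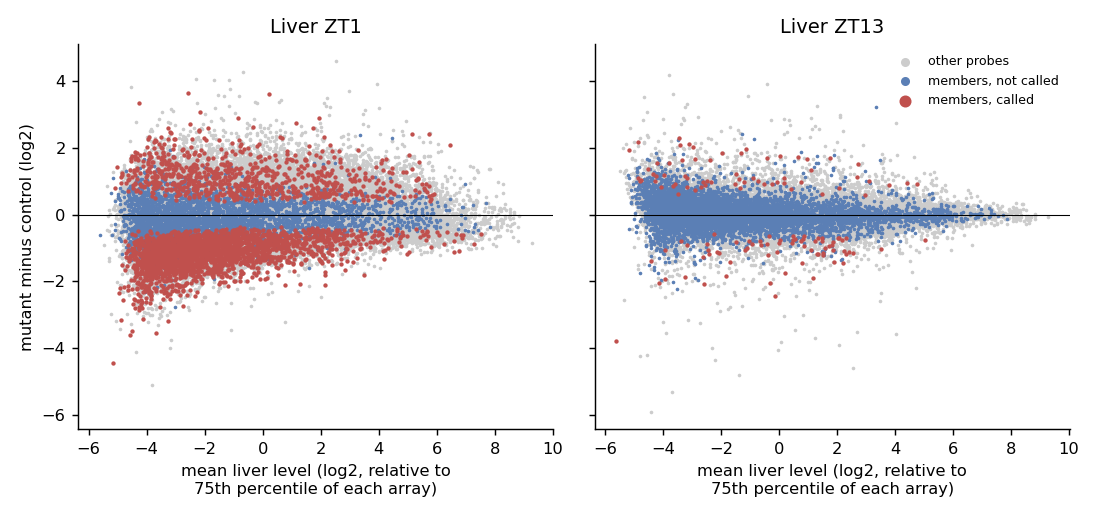
Each point is a probe in liver, with the mean level over the liver arrays (log2) on the horizontal axis and mutant minus control (log2) on the vertical one, in a panel for ZT1 and a panel for ZT13; members past the test are red, other members blue and all other probes grey. At ZT1 the members lie below 0 over most of the range of levels (median -0.43), and at ZT13 they lie about 0 (median 0.04).

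Time of day was compared within each genotype. In control liver, 3692 members (56.1%) in 2291 regions changed between ZT1 and ZT13, 943 higher and 2749 lower at ZT13, against 50.4 percent of all probes, 21.9 higher and 28.5 lower. The members' median was -0.50 and that of all probes -0.12, and the control ZT1 arrays again had slide 1 to themselves in liver. Of the 3962 members measured on both sides 2373 changed, 591 higher and 1782 lower, against 50.6 percent of all probes so measured. With slide as a block 53 members passed and the median was 0.07, and under quantile normalization 39.3% of calls were higher in place of 25.5%. In mutant liver, 102 members (1.55%) in 66 regions changed, 47 higher and 55 lower, against 1.95 percent of all probes, 0.996 higher and 0.954 lower. Of the 4589 measured on both sides 85 changed, 34 higher and 51 lower, against 2.05 percent of all probes so measured. The count of 102 became 25, 25 and 29 on leaving out replicates 1, 2 and 3 of mutant ZT1 in turn, and 30, 19 and 12 on leaving out those of mutant ZT13. Mutant liver arrays lie on slide 2 at ZT1 and on slide 3 at ZT13, and with slide as a block 18 members passed.

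The interaction of genotype and time passed for 2342 members (35.6%) in liver in 1641 regions, 1735 higher and 607 lower. Over all probes it passed for 30.8 percent, 17.3 higher and 13.6 lower. The median was 0.50 in members and 0.15 over all probes. Of the 3788 measured on both sides it passed for 1433, 1042 higher and 391 lower, against 30.4 percent of all probes so measured. Under the slide block it passed for 53 members at a median of -0.13, and under quantile normalization 59.4% of the calls were higher in place of 74.1%.

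Region chr9:106170918-106177894 rose from ZT1 to ZT13 in the livers of both genotypes. It lies 34575 bases from a probe for Alas1, the rate-limiting enzyme of heme synthesis, whose own signal rose by 0.98 in mutant liver (adjusted p = 0.030). Its forward strand rose in 4 of 5 members in control liver (median 2.28, range 0.67 to 2.58) and in 3 of 5 in mutant liver (median 1.66, range 1.17 to 2.19), and its reverse strand in 3 of 4 members in each (medians 1.59 and 1.41). A_30_P01020033 read -3.94, -4.03 and -4.44 in control liver at ZT1 and -2.31, -1.92 and -2.23 at ZT13. In mutant liver it read -4.17, -4.24 and -4.39 at ZT1 and -2.76, -3.20 and -2.92 at ZT13. Its exact complement A_30_P01020533 read -5.15, -6.35 and -4.13 and then -3.08, -2.55 and -2.65 in controls. The times did not overlap in any of these, and no member of the region passed for the interaction. With slide as a block the medians were 2.13 and 1.61 on the forward strand in controls and mutants, with 2 and 0 of 5 past the test. On the reverse strand they were 2.59 and 1.23, with 0 of 4 past the test in each genotype. The mutant reverse-strand count of 3 fell to 1 without mutant ZT1 replicates 1 or 2 or mutant ZT13 replicates 1 or 3.

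Among single members, A_30_P01029400 was at least 6.37-fold higher at ZT13 in control liver. A_30_P01024310 was at least 4.51-fold lower there, A_30_P01023950 at least 5.52-fold, the H19 probe A_30_P01025068 at least 5.21-fold and A_30_P01023141 at least 5.78-fold. The H19 bound includes the control ZT1 array that read 0.22, well above the others at -3.32 and -3.02. In mutant liver A_30_P01032927 was at least 4.84-fold lower at ZT13 (adjusted p = 0.0019), and A_30_P01033289 and A_30_P01025715 were lower by 2.05 and 1.71. A_30_P01017566 and A_30_P01024472 were higher by 1.83 and 1.58. A_30_P01025715 lost its call under 12 of 13 alternatives, A_30_P01033289 under 9 of 13, A_30_P01024472 under 7 of 14, A_30_P01017566 under 3 of 13 and A_30_P01032927 under 1 of 13.

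In adipose tissue, genotype moved almost no member past the test. At ZT1 none of 7744 members passed with limma, and none of all 33787 probes did (0 percent called); 485 members and 2610 probes had an unadjusted p under 0.05. The members' median difference was -0.13. At ZT13, 2 members passed (0.0258%), 1 in each direction, against 0.0385 percent of all probes, with 391 members and 1657 probes at an unadjusted p under 0.05. Neither of the 2 was measured on both sides: each was above background on all 3 arrays of a single one of the groups. The median SE of a member's difference was 0.38 in adipose tissue and 0.25 in liver. In simulated data with the adipose spread, a ZT13 difference of 1 log2 unit passed for 0% of 200 changed probes. A difference of 2 units passed for 72%. The changed probes were drawn from all probes fitted, whose median SE was 0.32, and not from the members alone. The simulated noise was independent between arrays and held no slide effect. The low counts thus do not show that genotype left the members unchanged. The adipose mutant ZT1 arrays were divided between slides 1 and 2, and more members passed with slide as a block, as given below. Hepatocyte markers differed between the genotypes on the adipose arrays, by a median of -3.23 at ZT1 and -1.45 at ZT13 with none past the test, and their part in these values was not tested. Without mutant ZT1 replicate 1, 5 members passed at ZT1, and without replicates 2 or 3, 1 did. With all arrays, the members of lowest p at ZT1 among the lower ones were A_30_P01021517 (-1.21, limma adjusted p = 0.204), A_30_P01028145 (-1.75, adjusted p = 0.339) and A_30_P01025659 (-2.37, adjusted p = 0.339). Among the higher ones the lowest p was that of A_30_P01022663 (1.01, limma adjusted p = 0.339), and none of these 4 passed. At ZT13, A_30_P01033522 (-2.24, adjusted p = 0.11) and A_30_P01028764 (-2.72, adjusted p = 0.183) did not pass either. At ZT13 the count of 2 became 0 without mutant replicate 1 and 1 without control replicates 1 or 3 or mutant replicates 2 or 3.

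Of the 2 at ZT13, A_30_P01030556 (chr10:76114894-76114953) lies in a region 54102 bases from a probe for Col6a2, a collagen chain, on the opposite strand. It read -5.03, -4.91 and -4.94 in adipose control ZT13, with 1 array above background, and -3.15, -3.44 and -3.32 in mutant ZT13 (1.66, SE 0.20, adjusted p = 0.0147). At ZT1 it read -2.47, -3.02 and -2.80 in controls and -3.35, -3.27 and -3.52 in mutants. The 2 probes next to it in the sequence shown above, A_30_P01020872 and A_30_P01028145, separated the same groups at ZT13: A_30_P01028145 read -6.03, -5.55 and -5.47 in controls, none above background, and -3.21, -3.40 and -3.39 in mutants. They were at least 2.40-fold and at least 3.87-fold higher in mutants but did not pass (adjusted p = 0.193 and 0.0751). Over time in adipose controls A_30_P01028145 was at least 9.55-fold lower at ZT13 (adjusted p = 0.00124). The interaction passed for A_30_P01028145 (4.10, adjusted p = 0.0147) and A_30_P01030556 (2.28, adjusted p = 0.0151). The genotype call of A_30_P01030556 at ZT13 was lost under 11 of 13 alternatives.

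The other was A_30_P01021787 (chr11:3548219-3548278), on the strand opposite to Tug1. It read -1.13, -3.15 and -2.29 in adipose control ZT13 and -7.95, -7.45 and -7.48 in mutant ZT13, where no array was above background (-5.44, SE 0.56, adjusted p = 0.0067, at least 10.67-fold lower). In the ZT1 groups it read -7.81, -5.78 and -6.86 in controls and -6.29, -7.25 and -6.16 in mutants. It was thus detected in the 3 adipose control ZT13 arrays, and also on 1 of the liver control ZT1 arrays, which read -6.30, -1.18 and -3.82. It entered the adipose fit only through control ZT13, the group where it is high. Its rank and p-values for genotype, time and the interaction carry that choice. The other 5 members of its region did not pass. The interaction in adipose tissue passed for 3 members (0.0387%), these being A_30_P01021787, A_30_P01028145 and A_30_P01030556, against 0.0918 percent of all probes. None of the 3 was above background on every array of the 4 groups, and they lost this call under 14, 6 and 9 of 19 alternatives. Dropping replicate 2 of control ZT1 raised that count to 6, and dropping replicate 2 of mutant ZT1 raised it to 5. Dropping replicate 1 of control ZT13, or any mutant ZT13 array, left 0.

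Over time in adipose controls, 1238 members (16%) in 996 regions passed, 252 higher and 986 lower at ZT13, against 14.4 percent of all probes, 6.09 higher and 8.36 lower. The members' median was -0.57 and that of all probes -0.25. Of the 5028 measured on both sides 884 passed, 144 higher and 740 lower, against 14.2 percent of all probes so measured. Control ZT1 and control ZT13 lie on slides 1 and 2, so time and slide cannot be told apart within these groups, and with slide as a block 14 members passed. Single arrays set this count too: it was 560 and 81 without control ZT1 replicates 2 and 3, and 38, 214 and 39 without control ZT13 replicates 1, 2 and 3. The share of higher calls was 20.4% here, 9.75% after normexp and 50.4% under quantile normalization, so the direction of the whole is not settled. A_30_P01021787 was at least 5.88-fold higher at ZT13, as its values above show, with the limit given there. A_30_P01029400, A_30_P01028480 and A_30_P01026748 were higher by 3.06, 2.81 and 2.73, and the first 2 of these turned their sign with slide as a block. In the other direction A_30_P01026189 and A_30_P01022510 fell by 3.88 and 3.73, and A_30_P01021693, with no ZT13 array above background, was at least 4.74-fold lower.

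In adipose mutants, 90 members (1.16%) in 74 regions passed, 26 higher and 64 lower, against 1.54 percent of all probes, 0.305 higher and 1.24 lower. Of the 4932 measured on both sides 59 passed, 10 higher and 49 lower, against 1.61 percent of all probes so measured. Macrophage markers moved with time in adipose tissue: 8 of 10 were lower at ZT13 in mutants (median -1.88) and 3 of 10 in controls (median -1.02). Their mean level ran from 2.49 to 3.19 in mutant ZT1 arrays, 0.71 to 1.29 in mutant ZT13, 2.56 to 3.03 in control ZT1 and 1.62 to 2.03 in control ZT13, with all 10 above background on every array of each adipose group, and their part in these counts was not tested. The count was 3252 without mutant ZT1 replicate 3, which lies on slide 2 while the other mutant ZT1 arrays lie on slide 1, and 18 and 22 without replicates 1 and 2. It was 6, 17 and 8 without mutant ZT13 replicates 1, 2 and 3. Under quantile normalization 65.7% of the calls were higher in place of 28.9%. The largest group of probes that rose lay in region chr16:23992037-24001037, 26818 bases from a probe for Bcl6, a transcriptional repressor, which itself changed by -0.37 without passing. There 3 of 6 forward-strand members (median 2.09) and 4 of 6 reverse-strand members (median 2.0) were higher at ZT13.

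A_30_P01033600 of that region read -3.61, -3.33 and -2.34 in adipose mutant ZT1 and -0.12, -0.42 and 0.18 at ZT13 (2.97, adjusted p = 0.0152). Its reverse-strand partner A_30_P01021218 read -3.06, -2.44 and -2.45 and then 0.08, -0.19 and 0.42 (2.75, adjusted p = 0.0115). A_30_P01021393 was at least 6.92-fold higher (adjusted p = 0.00919). In adipose controls the medians were 0.81 and 0.54 with no call, and the interaction (1.42 and 1.59) did not pass for any member, so the genotypes were not shown to differ in this. No member of the region passed with slide as a block, at medians of 2.89 and 2.70. The forward count of 3 rose to 5 when replicate 3 of mutant ZT1 was dropped, and fell to 1 and 0 when replicates 1 and 3 of mutant ZT13 were. The reverse count of 4 fell to 1 and 2 on dropping replicates 1 and 2 of mutant ZT1, and to 0, 2 and 0 on dropping replicates 1, 2 and 3 of mutant ZT13. Among the members that fell, A_30_P01026580, A_30_P01025467 and A_30_P01023713 were at least 3.14-fold, 5.82-fold and 6.57-fold lower at ZT13, and lost their call under 9, 4 and 7 of 13 alternatives.

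Probes facing each other across the strands often gave the same reading. On the array, 1726 pairs of noncoding probes on opposite strands share at least 30 bases, 100 of them being exact complements, and in 767 pairs both probes were members, in 339 one was and in 620 neither. The levels of the members in a pair differed by a median of 0.94 log2 units in liver and 0.90 in adipose tissue, and by more than 2 in 163 and 137 pairs. Of 565 pairs tested for genotype in liver at ZT13, 390 (69.0%) had differences of the same sign. Where 1 of the pair passed (23 pairs), the partner had the same sign in all 23, and where both passed (14 pairs), both went the same way in all 14. For time in mutant liver the partner had the same sign in 16 of 17 pairs and in 10 of 10. At ZT1 in liver it did so in 172 of 245 pairs and in 151 of 158. Partners share arrays and sequence, so these numbers describe the probes and say nothing on chance. Transcription of both strands and a signal read on both strands from 1 RNA cannot be told apart here.

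Members of 1 region and strand were compared in the same way. For genotype in liver at ZT13, 27 regions had at least 2 members past the test and all of them in 1 direction, 8 had at least 3, and 0 had calls both ways. Each called member was set against each other tested member of its region, so that a region with several calls enters several times, and the sign was shared in 409 of 441 such pairs (92.7%). In 18 of the 89 regions the called member was the only one tested. For time in mutant liver the numbers were 19 regions, 10 with at least 3, 0 both ways and 306 of 343 pairs (89.2%). At ZT1 in liver 684 regions had at least 2 calls in 1 direction and 146 had calls both ways. The sign was shared in 4940 of 6703 pairs (73.7%).

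Genes near the changed regions were read from their own probes. Of the 89 regions with a member past the test for genotype in liver at ZT13, 65 had a nearest gene that was itself tested. It passed in the same direction for 13, in the opposite direction for 1, and had the same sign for 36, while 3.0 percent of all probes passed. For time in mutant liver, of 48 such regions the gene passed in the same direction for 7 and in the opposite direction for 0. It had the same sign for 38, and 1.95 percent of all probes passed. For time in adipose mutants the gene passed for 0 of 65 and had the same sign for 38, and 1.54 percent of all probes passed. The nearest gene probe could lie within the region itself, also on its strand. Whether it read the same RNA as the members was not tested. Within 100000 bases of the clock genes on a list of 23, 29 noncoding probes lay near 6 of them, Bhlhe40, Bhlhe41, Ciart, Csnk1e, Nfil3 and Usp2. None of the 25 tested passed for genotype in liver at ZT13, which is near the 3.0 percent of all probes. Most of the 25 did pass for genotype in liver at ZT1, for time in control liver and for the liver interaction. Those that passed were all lower in mutants at ZT1, lower at ZT13 in control liver and higher for the interaction. Over all probes 44.2, 50.4 and 30.8 percent passed in these comparisons. The limit that the slides set on those comparisons holds here too. Of the 23 clock genes, 5 were higher and 7 lower in mutant liver at ZT13. Of 46 named long noncoding RNA genes, 35 have a gene probe on the array, and 27 of those were tested there: 1 was higher, which was Neat1, and none was lower, against 3.0 percent of all probes.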

How the data were processed

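Total RNA from 24 tissue samples was hybridised to 1-colour (Cy3) Agilent mouse arrays of 62976 spots, 8 arrays to a slide. Per the file headers, the scanner files hold spot intensities from Agilent Feature Extraction 10.7.3.1, from which the authors' software had subtracted background, with a flag of 0 or 1 that marks spots well above background. The deposited table of the authors is on a log2 scale: each column equalled log2 of the array's processed signal minus a constant (within 0.01 for at least 99.4% of probes), with column medians from -3.92 to -3.03, and it served as an alternative.

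Control spots and outlier spots were left out, and repeat spots of a probe were averaged. Levels are log2 processed signal minus the array's 75th percentile. Probes entered a tissue's fit when some group of that tissue had them above background on each of its 3 arrays. limma 3.58.1 in R 4.3.3 (lmFit, eBayes) fitted 4 group means to the 12 arrays of a tissue, or 8 means to 24 arrays for liver against adipose tissue, with Benjamini-Hochberg adjustment over all probes tested and a threshold of 0.05. The scripts were tested on simulated data. Fold bounds use the lowest signal called above background on the dim arrays. The number of arrays limits the precision.

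Named members were, per genotype comparison, the 6 largest differences in each direction among those past the test without overlap of the groups (4 for time, tissue and interaction), filled up to 3 by lowest p, together with the other probes of named regions, probes near clock genes and the 5 brightest of each tissue, of which 1 is not reported here. Regions with several called probes, NEAT1 among them, were chosen after their values were seen. The members and lists were chosen with earlier results of these data known. Alternatives covered background correction, quantile normalization, the deposited values, the filter, the samples fitted, slide, the replicate number and leaving out each array. Sequences are those of the array's design.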

Additional observations from a re-analysis of the deposited data

Results flagged for a closer look

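For 23 of the named members the genotype difference itself differed between ZT1 and ZT13, by the interaction term of limma (mutant minus control at ZT13, minus the same at ZT1, log2, adjusted p under 0.05). Of the members tested, the interaction passed for 35.6% in liver and 0.0387% in adipose tissue, against 30.8 and 0.0918 percent of all probes. Some of the 23 were named because this term passed, the others for their genotype difference at 1 time, which enters it. The list therefore describes these members and is no test of them. In liver the interaction was positive for 10 of these: A_30_P01022738 (4.45), A_30_P01022822 (4.25), the H19 probe A_30_P01025068 (4.2), A_30_P01023950 (4.02), A_30_P01033034 (3.45), A_30_P01019716 (2.93), A_30_P01027730 (2.36), A_30_P01028557 (2.08), A_30_P01023417 (1.93) and, in the chromosome 8 region, A_30_P01023533 (1.97). It was negative for 4 probes of the chromosome 1 region, A_30_P01023145 (-5.73), A_30_P01027052 (-4.66), A_30_P01030770 (-4.66) and A_30_P01021793 (-4.57). It was also negative for A_30_P01023984 (-3.86), A_30_P01031758 (-3.68), A_30_P01019901 (-3.59), A_30_P01026279 (-3.18), A_30_P01030038 (-3.08) and A_30_P01020248 (-2.98). In adipose tissue it passed for A_30_P01021787 (-5.69), A_30_P01028145 (4.10) and A_30_P01030556 (2.28). Each liver value includes the control ZT1 arrays, which in liver have a slide to themselves.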

How the results depend on the processing

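Member counts past the test are given where an alternative moved them by over 1.5 times. With slide as a block in a fit of all 24 arrays they were 22 for genotype in liver at ZT1 (3255 as reported), 47 and 8 for genotype in adipose tissue at ZT1 and ZT13 (0 and 2), 53 and 18 for time in control and mutant liver (3692 and 102), 14 and 17 for time in adipose controls and mutants (1238 and 90), and 53 and 7 for the interaction in liver and adipose tissue (2342 and 3). At ZT13 in liver that block gave 113 (134 as reported), and the fit within slide 3, which takes the difference from the same arrays, gave 257. Within slide 1 the tissue count was 2145 (5408). A fit of all 24 arrays without the block gave 71 for genotype in liver at ZT13, 2 and 6 for genotype in adipose tissue, 46 for time in mutant liver, 2859 and 1169 for time in adipose controls and mutants and 981 for the liver interaction. Normexp gave 2522 for time in adipose controls, 0 for genotype in adipose tissue at ZT13 and 1 for the adipose interaction. Quantile normalization gave 79 for genotype in liver at ZT13 and 1 in adipose tissue at ZT13. Without a filter the counts were 21 for genotype in liver at ZT13, 1 in adipose tissue at ZT13, 7 for time in mutant liver, 747 for time in adipose controls, and 1198 and 1 for the interactions. Requiring every array of the fit to be above background, with fewer probes tested, gave 2123 for genotype in liver at ZT1, 2355 for time in control liver, 2377 for tissue, and 0 for genotype at ZT13 and for the interaction in adipose tissue. The deposited values moved no count by over 1.5 times other than in adipose tissue at ZT13, where they gave 3. The cause of these changes was not tested. Slide largely follows the groups, so for calls lost under the slide block the 2 cannot be told apart.

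Leaving out each array in turn gave 2542 to 3634 members for genotype in liver at ZT1, 34 to 117 at ZT13, 0 to 5 and 0 to 2 in adipose tissue at ZT1 and ZT13, 3052 to 3934 and 12 to 30 for time in control and mutant liver, 38 to 856 and 6 to 3252 for time in adipose controls and mutants, 1597 to 2972 and 0 to 6 for the interactions in liver and adipose tissue, and 5234 to 5598 for tissue.

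Same-numbered arrays of a tissue did not deviate together (36 pairs, median correlation of their deviations -0.03, 6 over 0.1), nor did liver and adipose arrays of the same number (12 pairs, median -0.02, 2 over 0.1), so the numbers were not taken to pair samples. The 36 pairs join different genotypes or times and cannot show a shared animal. Liver and adipose arrays of other number, within a genotype and time, ran from -0.66 to 0.69. The 12 pairs therefore cannot exclude that same-numbered liver and adipose samples share an animal. With the replicate number as a block the counts were 60 for time in mutant liver, 269 and 27 for time in adipose controls and mutants, 0 for genotype in adipose tissue at ZT13 and 1 for the adipose interaction, and 98 for genotype in liver at ZT13.

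Of the results for named members under these alternatives, 1137 kept direction and call, 236 lost the call, 8 gained it and 2 turned their sign: A_30_P01029400 (-0.45) and A_30_P01028480 (-0.35) for time in adipose controls with slide as a block. Of the lost calls, 55 came from that block and 19 from fitting without a filter. Dim probes limit the reading: a member near the detection limit has only a bound in the group where it was not above background.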
